A study of Mus musculus with 18 samples.

Results

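FOXS1 KO clone 2 is a line of 10T1/2 cells, multipotent mouse mesenchymal fibroblasts, grown from a single cell after CRISPR-Cas9 editing of *Foxs1*, the gene of a forkhead transcription factor. Its response to stimulation was measured as counts per gene in 6 of the 18 poly(A) RNA libraries of the series, 3 in each of the 6 groups of a genotype and a treatment. The uninduced group of clone 2 was compared with cells of the same clone that received TGF-β1 (1 nM, 12 h) after confluence and then 48 h of DMII, an adipogenic mix of indomethacin, insulin, dexamethasone and 3-isobutyl-1-methylxanthine. WT cells and FOXS1 KO clone 1, each uninduced and stimulated in the same way, gave the comparison for differences in response. They were also fitted together with clone 2, sharing its filter, scaling and dispersion estimates. The rule took every gene of clone 2: of 54532 genes listed, 22467 had a count in its libraries and 14317 passed the filter on low counts and were tested. Positive values mean higher after stimulation. TGF-β1 and DMII were given only in sequence, and cells under either alone were not analysed here, so the parts of the response owed to each cannot be told apart. The study's general methods also give overnight serum starvation before TGF-β1 and a change of medium for DMII. The labels do not say whether uninduced cells shared these or the added time, so their part cannot be told apart either. Clone 2 is 1 clone, and nothing in the labels says that its replicates came from separate cultures, so p-values measure only the spread between these libraries.

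The stimuli act through separate receptors. TGF-β1 signals through a serine and threonine kinase receptor to SMAD2 and SMAD3 and is known for turning stromal cells into matrix-forming, contractile myofibroblasts and for holding back adipogenesis. Dexamethasone activates the glucocorticoid receptor, 3-isobutyl-1-methylxanthine raises cAMP by blocking phosphodiesterases, insulin acts on the insulin and IGF-1 receptors, and indomethacin inhibits cyclooxygenases and can activate PPARγ. C/EBPβ and C/EBPδ rise early in adipogenesis and precede PPARγ and C/EBPα, which turn on the genes of lipid storage.

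*Foxs1* itself held 21.1, 22.9 and 23.9 CPM (counts scaled to the TMM-corrected library size) in the uninduced libraries of clone 2 and 38.8, 37.99 and 42.8 CPM in the stimulated ones. The groups did not overlap, but the log2 fold change of 0.82 (SE 0.12, adjusted p = 6.16e-07, edgeR) was below the fold threshold, so *Foxs1* was not a differentially expressed gene (DEG). WT cells held less of it, from 2.23 ± 0.886 to 2.51 ± 0.641 CPM, and clone 1 from 25.7 ± 2.04 to 54.5 ± 2.06 CPM, so the level was higher in both knockout clones than in WT, uninduced and stimulated. Counts over the whole gene do not show the edited bases, so neither the level nor its direction against WT checks the label of the clone. Defining fibroblast genes were abundant: the summed level of the 15 fibroblast markers was 37966 to 39179.8 CPM uninduced and 75124 to 80562 CPM stimulated. The markers did not rise together. By the rule given below, 3 of the 14 tested rose and 4 fell, against 6.46% and 11.2% of all genes, with *Lum* lowest at a log2 fold change of -6.41. The 12 macrophage markers summed to at most 34.3 CPM, the 10 endothelial markers to at most 7.28, the 10 epithelial markers to at most 3.45 and the 10 neural markers to at most 42.1. *Ptprc*, *Kdr* and *Epcam*, which define leukocytes, endothelium and epithelium, had no count in any library of clone 2. The macrophage sum ranged from 31.7 to 34.3 CPM uninduced and from 14.7 to 17.7 CPM stimulated, and its part in any result was not tested. In bulk libraries, fewer cells that express a gene and less of its RNA in each cell cannot be told apart.

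Stimulation changed a large part of the transcriptome of clone 2. DEGs had to pass both an adjusted p (Benjamini-Hochberg) under 0.05 and a log2 fold change of more than 1 in size. By this rule 925 genes rose and 1603 fell, which is 6.46% and 11.2% of all genes tested, the background against which every list below is read. The adjusted p alone was passed by 7982 genes. Wherever the libraries of 2 groups are said not to overlap, this only describes the values, and the share of all genes without overlap is not given here. Falls were the longer tail: 156 DEGs fell and 41 rose by more than 5 on the log2 scale. Genes that rose had a median of 9.42 CPM uninduced and 35.5 CPM stimulated, and genes that fell went from a median of 4.35 to 0.973 CPM. The risen DEGs took 10.4% to 10.6% of all counts in uninduced libraries and 25.6% to 26.1% in stimulated ones. Library totals were 15922953 to 42005596 counts uninduced and 17591048 to 20125767 stimulated. Scaling by library totals in place of TMM shifted the median log2 fold change of all genes by -0.29 and the split of calls from 36.6% rises and 63.4% falls to 21.5% and 78.5%. Whether the cells' total RNA changed was not measured, so each change is relative to the other genes.

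**Figure D1:**
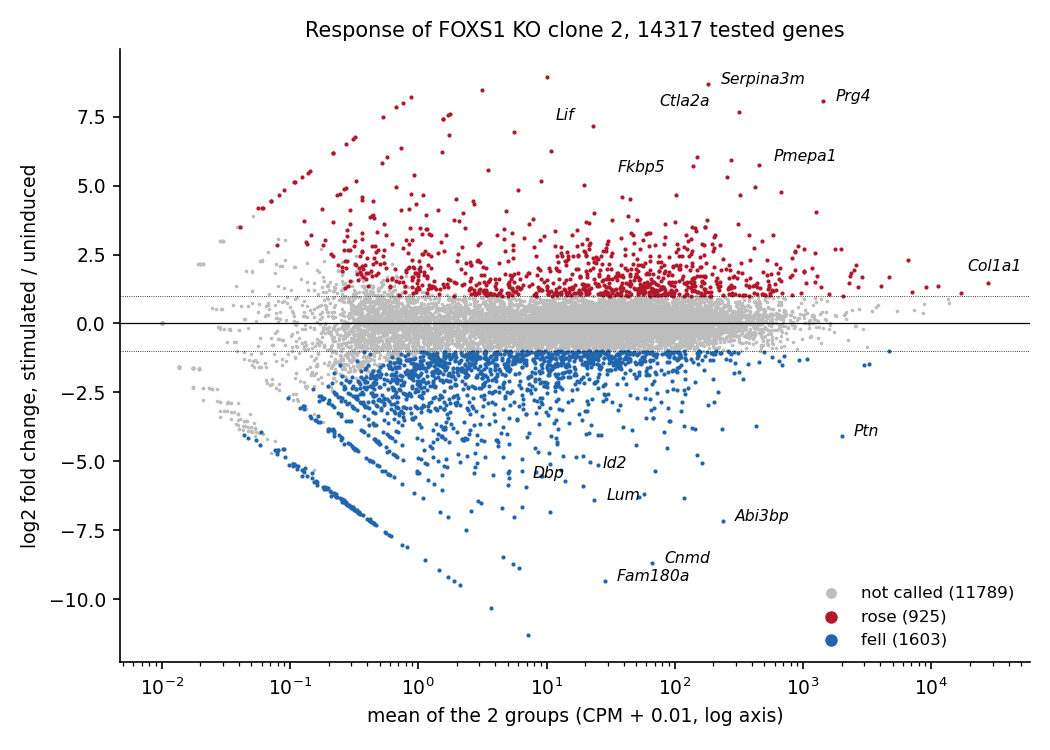
Log2 fold change (stimulated over uninduced, y axis) against the mean level of the 2 groups in CPM plus 0.01 (log x axis) for the 14317 genes tested in FOXS1 KO clone 2, with 925 genes that rose in red and 1603 that fell in blue; dotted lines mark a log2 fold change of 1 in either direction. The falls reach further than the rises, and the straight bands at the left are genes with few counts or none in 1 group, whose fitted fold change depends on the prior count.

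Among genes that averaged 5 CPM or more over the 6 libraries, the 10 largest rises included *Prg4*, *Ctla2a*, *Lif* and *Ereg*. *Prg4*, which encodes lubricin, held 10.95, 8.02 and 12.8 CPM uninduced and 2827, 2841 and 2938 CPM stimulated (log2 fold change 8.09, SE 0.14, adjusted p = 5.97e-16). Every stimulated library lay far above every uninduced one. *Ctla2a*, which encodes an inhibitor of cysteine proteases, went from 3.32, 3.06 and 2.43 to 622, 636 and 619.8 CPM. *Lif*, a cytokine of the interleukin 6 family, went from 0.446, 0.221 and 0.116 to 45.7, 46.6 and 45.3 CPM. *Ereg*, which encodes the EGF receptor ligand epiregulin, went from 4.46, 5.004 and 3.48 to 276, 283 and 316 CPM. The groups of these genes did not overlap.

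*Pmepa1*, an inhibitor of TGF-β signalling that TGF-β itself induces, was also among the 10 largest rises. It held 15.9, 17.9 and 16.8 CPM uninduced and 941, 886 and 863 CPM stimulated (log2 fold change 5.74, SE 0.066, adjusted p = 3.86e-32), and the groups did not overlap. *Alpl*, the tissue-nonspecific alkaline phosphatase, rose from 0.0877 ± 0.0870 to 10.96 ± 2.31 CPM, and *Dusp2*, a phosphatase that switches off MAP kinases, from 0.323 ± 0.178 to 21.4 ± 3.699 CPM (SD, n = 3). Further large rises were those of *Serpina3m* (0.837 ± 0.108 to 365 ± 10.1 CPM) and of *Serpina3k*, with 3 counts in the 3 uninduced libraries together and a ratio of 572 (95% counting interval 195 to 2779). Members of the Serpina3, Ctla2, Abca8 and Gbp families are close copies within each family, so their values are uncertain where reads fit several copies, and the handling of such reads is not stated in the sources at hand.

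By the same limit on level, the 10 largest falls included the matrix and cartilage genes *Cnmd*, *Abi3bp*, *Lum* and *Cytl1*. *Cnmd*, which encodes chondromodulin, a glycoprotein of cartilage that restrains vessel growth, held 137, 135 and 127 CPM uninduced and 0.0560, 0.392 and 0.541 CPM stimulated (log2 fold change -8.67, SE 0.17, adjusted p = 2.94e-26). *Abi3bp*, a matrix protein, held 479, 430.2 and 495 and then 2.97, 3.47 and 3.37 CPM. *Lum*, which encodes the collagen-binding proteoglycan lumican, held 47.1, 46.01 and 46.3 and then 0.728, 0.523 and 0.361 CPM. Stimulated libraries were below uninduced libraries throughout. *Fam180a* fell from 56.6 ± 2.01 to 0.0823 ± 0.0420 CPM, *Cytl1*, a small secreted protein of cartilage, from 21.1 ± 2.66 to 0.178 ± 0.218 CPM, *Aif1l*, an actin-binding protein, from 11.05 ± 1.89 to 0.0872 ± 0.151 CPM, and *Cyp3a13*, a cytochrome P450, from 12.6 ± 3.14 to 0.124 ± 0.0701 CPM. In *A530016L24Rik* and in *Padi2*, a peptidylarginine deiminase, the 3 stimulated libraries together held 1 count each, against 1015 and 949 counts uninduced. The ratios of uninduced to stimulated levels were 597 (107 to 23593) and 558 (99.9 to 22060.4, 95% intervals of counting error only).

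Genes could also be switched between presence and absence at this depth. A total of 80 genes had no count in the uninduced libraries and a count in every stimulated one, and 463 had the opposite pattern. The uninduced group was sequenced more deeply (79065561 against 56864910 counts), so the second pattern was easier to meet. With a floor of 3 counts over a group, *Zbtb16*, a zinc finger repressor induced by glucocorticoids, was at least 47.6-fold higher after stimulation, with 84 counts. *Bpifc*, a lipid-binding protein, was at least 41.96-fold and *Kcnj15*, an inwardly rectifying potassium channel, at least 37.4-fold higher. In the other direction *Cmtm5* was at least 244-fold, *Cldn19*, a claudin of tight junctions, at least 126-fold and the immunoproteasome subunit *Psmb9* at least 71.1-fold lower.

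The 5 DEGs with the largest gain in absolute CPM were the matrix genes *Col1a1*, *Fn1*, *Col3a1*, *Lox* and *Sparc*. *Col1a1*, the alpha 1 chain of type I collagen, held 14669, 15327 and 14561 CPM uninduced and 37898, 41957 and 42836 CPM stimulated, and its share of all counts went from 1.59% ± 0.0386 to 3.58% ± 0.19 (SD, n = 3). *Col3a1*, of type III collagen, rose from 6367 ± 216 to 16232 ± 362 CPM, *Sparc*, a collagen-binding glycoprotein, from 5159 ± 132 to 12865 ± 411 CPM, and *Lox*, the enzyme that cross-links collagen and elastin, from 2215 ± 99.7 to 10866 ± 486 CPM. *Fn1*, which encodes fibronectin, rose from 10775 ± 249 to 23464 ± 1713 CPM (log2 fold change 1.12), and with library totals its value of 0.83 was below the threshold. The 5 largest losses were *Ptn*, *Col6a1*, *Vim*, *Col6a2* and *Pcolce*. *Ptn*, the heparin-binding growth factor pleiotrophin, held 3719.7, 3822 and 3762 CPM uninduced and 241, 229 and 206 CPM stimulated (log2 fold change -4.06, SE 0.057). *Vim*, the intermediate filament of mesenchymal cells, fell from 4831 ± 39.8 to 1752 ± 52.2 CPM, and *Col6a1* and *Col6a2*, chains of type VI collagen, fell by 1.01 and 1.49 on the log2 scale. The call of *Col6a1* was lost, at -0.99, without stimulated replicate 2 or 3 or uninduced replicate 3.

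Targets of TGF-β rose in clone 2. Of 30 genes of that list tested, 18 rose and 2 fell, with a median log2 fold change of 1.57 against -0.02 over all genes. *Ctgf*, the matricellular connective tissue growth factor, held 8.28, 7.395 and 7.13 CPM uninduced and 219, 214 and 160.0 CPM stimulated (log2 fold change 4.67, SE 0.16). About 23.2% of the exonic length of *Ctgf* overlaps another gene, and without known strand handling its counts are uncertain to that extent. *Cyr61*, its close relative, rose from 86.6 ± 9.78 to 302 ± 34.8 CPM. The members that fell were *Tgfbi*, a cell adhesion protein of the matrix, from 7.83 ± 0.406 to 0.425 ± 0.0861 CPM, and *Snai2*, a repressor of epithelial genes, from 126 ± 2.53 to 55.1 ± 0.831 CPM. The SMAD CAGA box, searched as CAGACA, stood in 2 of 13 members with a promoter (15.4%) and in 13.1% of the promoters of tested genes (17.1% of all).

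Among 30 ligands, receptors and SMAD regulators tested, 12 rose and 4 fell, the latter count being 2 without uninduced replicate 1 or 3 or stimulated replicate 1. The 3 ligands moved apart. *Tgfb1* rose from 16.1 ± 0.775 to 49.1 ± 1.41 CPM and *Tgfb3* from 28.0 ± 0.821 to 315 ± 20.9 CPM, whereas *Tgfb2* fell from 108 ± 1.34 to 23.4 ± 2.23 CPM (log2 fold changes 1.61, 3.497 and -2.21). *Skil*, a repressor of SMAD activity, rose from 6.903 ± 0.464 to 94.3 ± 3.62 CPM, and *Ltbp1*, which anchors latent TGF-β in the matrix, fell from 111 ± 3.23 to 25.99 ± 0.695 CPM. In the related BMP pathway 3 of 26 genes rose and 4 fell. *Id2*, a BMP target that blocks helix-loop-helix factors, held 43.2, 43.1 and 40.0 CPM uninduced and 1.401, 1.63 and 0.842 CPM stimulated (log2 fold change -5.03, SE 0.14), the receptor gene *Acvr1* rose by 1.53 on that scale and *Smad9* fell from 3.23 ± 0.688 to 0.684 ± 0.0867 CPM.

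The glucocorticoid list also had most of its members up: 16 of 26 rose and 3 fell, with a median log2 fold change of 1.59. *Fkbp5*, which encodes a chaperone that damps the glucocorticoid receptor, held 5.09, 4.65 and 5.91 CPM uninduced and 279, 284 and 254 CPM stimulated (log2 fold change 5.72, SE 0.10, adjusted p = 2.97e-23). *Pdk4*, the kinase that turns off pyruvate dehydrogenase, held 13.2, 10.4 and 13.5 and then 478, 483 and 529 CPM. *Tsc22d3*, which encodes the glucocorticoid-induced leucine zipper, held 35.8, 33.1 and 32.3 and then 83.6, 81.9 and 80.8 CPM. All stimulated values were above all uninduced ones in these genes, although the log2 fold change of *Tsc22d3* was 1.28 with TMM and 0.98, below the threshold, with library totals. *Per1*, a clock gene that glucocorticoids induce, had a log2 fold change of 0.82 and was not called. The members that fell were *Timp4*, an inhibitor of metalloproteinases, with 183 counts uninduced and 3 stimulated (ratio 35.9, 12.1 to 176), *Sult1a1*, a sulfotransferase, from 3.18 ± 0.655 to 0.332 ± 0.188 CPM, and *Fam107a*, an actin-associated protein, from 175 ± 3.297 to 69.7 ± 3.29 CPM. AGAACA, a hexamer bound by the glucocorticoid receptor, stood in 2 of 21 members with a promoter (9.52%) and in 10.5% of the promoters of tested genes (16.2% of all).

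Genes downstream of cAMP were mixed, with 11 of 29 up and 6 down. The nuclear receptor gene *Nr4a3* held 0.468, 0.443 and 0.174 CPM uninduced and 11.6, 11.96 and 10.9 CPM stimulated, and *Nr4a2* rose from 3.896 ± 0.662 to 12.9 ± 1.78 CPM, while *Nr4a1* (103 ± 4.91 to 202 ± 8.18 CPM) had a log2 fold change of 0.97, just below the threshold, which it passed without stimulated replicate 1 or 2 (1.00 and 1.01). *Pde4b*, a phosphodiesterase that degrades cAMP, held 3.28, 2.97 and 2.78 and then 74.5, 74.1 and 74.6 CPM (log2 fold change 4.599, SE 0.096). *Areg*, which encodes amphiregulin, a ligand of the EGF receptor, had 1 count in the uninduced libraries and 154 in the stimulated ones, a ratio of 262 (46.3 to 10412). The falls included *Ppargc1a*, the coactivator PGC-1α, with 524 counts uninduced and 3 stimulated (ratio 103, 34.9 to 499.6), and *Akap12*, a scaffold of protein kinase A, from 42.04 ± 2.304 to 8.26 ± 0.428 CPM.

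The cAMP response element TGACGTCA, the site of CREB, was looked for in the 250 bases before the annotated start on both strands. It stood in 2 of the 23 members with a RefSeq promoter (8.7%) and in 1.62% of all 27025 promoters, or 2.81% of the 10143 promoters of tested genes. The other carrier, *Dusp1*, named after its values were seen, had a log2 fold change of 0.026 and was not called. The stretch of *Areg* is shown, on chr5:91139478-91139598 (plus strand) of GRCm38.p6 in RefSeq, with the element in capitals.
*Areg*: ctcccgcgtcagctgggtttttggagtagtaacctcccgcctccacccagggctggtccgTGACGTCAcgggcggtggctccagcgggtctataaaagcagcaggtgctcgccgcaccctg

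Prostaglandin and insulin genes were read for the other components of DMII. In the prostaglandin list 2 of 14 genes rose and 2 fell (1 fell without stimulated replicate 1). *Ptgs2*, the inducible cyclooxygenase that indomethacin inhibits, held 27.4, 26.9 and 29.1 CPM uninduced and 303, 309 and 329 CPM stimulated (log2 fold change 3.500, SE 0.091), while the constitutive *Ptgs1* had a log2 fold change of 0.30. *Ptger4*, a receptor of prostaglandin E2, rose from 0.331 ± 0.102 to 2.01 ± 0.467 CPM and *Ptgis*, the prostacyclin synthase, fell from 1.404 ± 0.460 to 0.405 ± 0.0623 CPM. In the insulin and IGF list 12 of 28 rose and 4 fell. *Irs2*, an adaptor of the insulin receptor, rose from 19.7 ± 0.735 to 108 ± 5.77 CPM, *Igf1r*, the IGF-1 receptor, from 73.6 ± 2.76 to 197 ± 2.05 CPM, and *Grb14*, an adaptor that restrains the insulin receptor, from 4.15 ± 0.376 to 24.7 ± 2.23 CPM. *Pik3ip1*, an inhibitor of PI3 kinase, fell from 48.1 ± 2.69 to 6.78 ± 0.801 CPM, and the insulin receptor gene *Insr* had a log2 fold change of 0.80 and was not called.

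**Figure D2:**
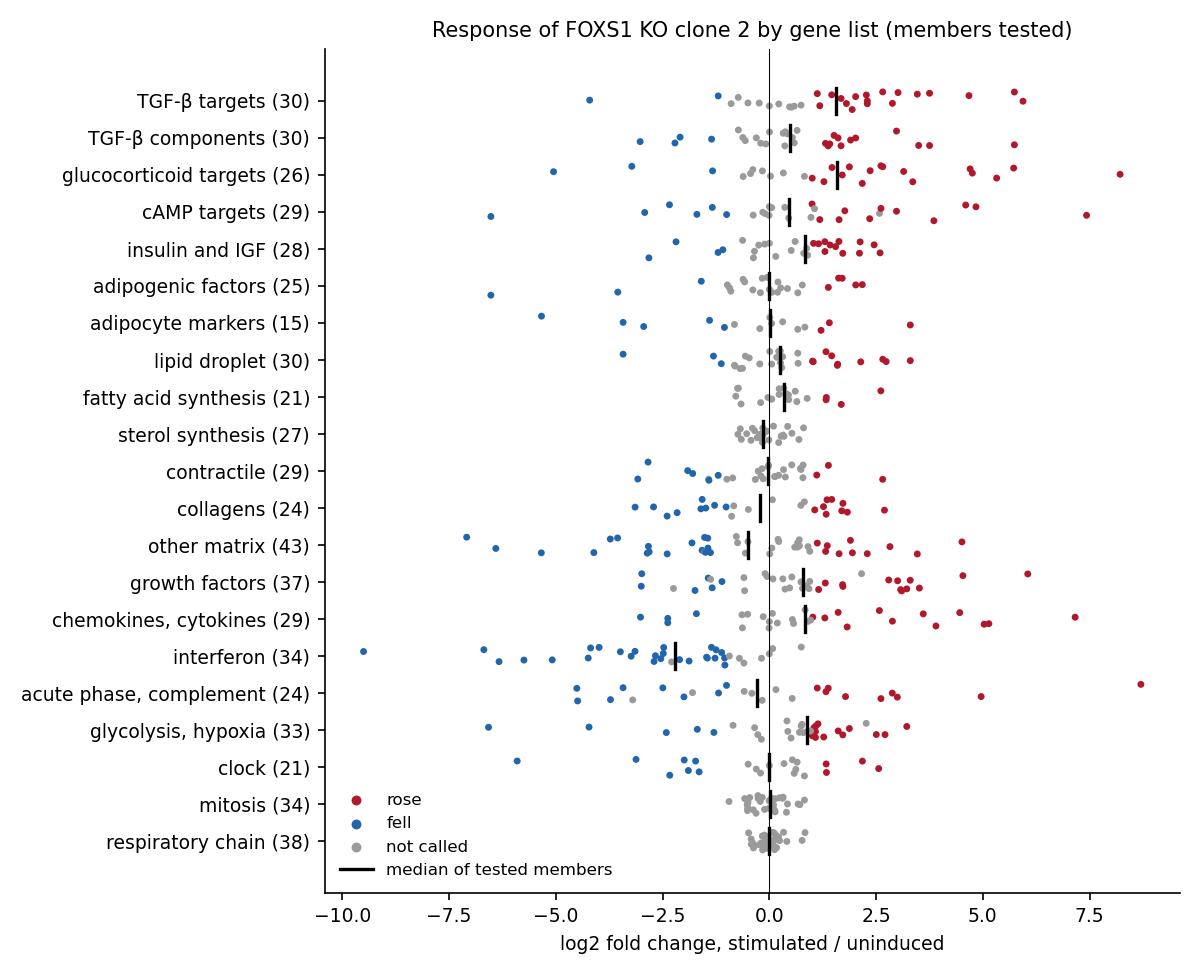
Log2 fold change (x axis) of each tested member of 21 gene lists in FOXS1 KO clone 2, with the number tested in parentheses, DEGs that rose in red, DEGs that fell in blue and the list median as a black bar. The TGF-β target and glucocorticoid lists have medians of 1.57 and 1.59, the interferon list -2.20, and the sterol synthesis, mitosis and respiratory chain lists hold no DEG.

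Early and late adipogenic factors parted in clone 2. *Cebpb* held 254, 277 and 258 CPM uninduced and 1104, 1051 and 1051 CPM stimulated (log2 fold change 2.02, SE 0.059), and *Cebpd*, its early partner, held 214, 219 and 237 and then 982, 1029 and 1012 CPM. *Pparg*, the master regulator of fat cells, held 36.8, 40.3 and 37.9 and then 20.8, 22.03 and 17.4 CPM, and *Cebpa* 27.9, 29.01 and 26.1 and then 23.8, 23.3 and 24.8 CPM. Their log2 fold changes of -0.93 and -0.21 did not pass the fold threshold, although all stimulated libraries were below all uninduced ones. With library totals the value of *Pparg* was -1.23 and passed. Of the whole list of 25 factors, 5 rose and 3 fell, with 6 falls under library totals. *Klf9*, a glucocorticoid-induced factor of adipogenesis, rose from 16.2 ± 0.296 to 53.1 ± 1.803 CPM, and *Zfp423*, a factor of preadipocyte commitment, fell from 21.3 ± 1.06 to 7.07 ± 1.82 CPM.

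Genes of mature fat cells did not rise together. Of 31 adipocyte markers 15 passed the filter on low counts, and 3 of these rose and 5 fell (3 fell without stimulated replicate 3). *Fabp4*, the fatty acid binding protein of adipocytes, held 1.27, 1.11 and 1.16 CPM uninduced and 3.92, 3.47 and 2.105 CPM stimulated (log2 fold change 1.41, SE 0.33). *Plin4*, a lipid droplet coat protein, held 105, 105 and 114 and then 11.3, 9.48 and 9.32 CPM, and *Adipoq*, the hormone adiponectin, 1.004, 0.930 and 0.928 and then 0.224, 0 and 0.120 CPM. *Plin4* and *Adipoq* therefore fell while *Fabp4* rose. *Lep* and *Retn*, the adipokines leptin and resistin, had no count in clone 2.

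Among genes of the lipid droplet 10 of 30 rose and 3 fell, with a median of 0.26 that became -0.03 with library totals. *Acsl4*, which activates arachidonic acid, rose from 52.4 ± 1.58 to 349.5 ± 11.01 CPM, *Angptl4*, an inhibitor of lipoprotein lipase, from 1.43 ± 0.217 to 9.43 ± 0.821 CPM, and *Plin2*, the droplet coat of most cells, from 335 ± 6.88 to 683 ± 7.31 CPM. The rise of *Plin2* was 0.73 on the log2 scale with library totals and no longer called. In fatty acid synthesis 4 of 21 genes rose and 0 fell: *Scd1*, the stearoyl-CoA desaturase, held 249, 242 and 232 CPM uninduced and 1386, 1531 and 1512 CPM stimulated, and *G6pdx* and *Pgd*, enzymes that supply NADPH, and *Acaca*, acetyl-CoA carboxylase, rose by 1.68, 1.33 and 1.33 on the log2 scale. *Fasn*, fatty acid synthase, had a value of 0.88 and was not called. None of the 27 sterol synthesis genes was called by edgeR in either direction (20 had an unadjusted p below 0.05), and their log2 fold changes ran from -0.74 to 0.80. DESeq2 called 0 of them. In sterol transport *Abca1*, the cholesterol efflux pump, held 10.8, 8.46 and 7.304 and then 71.8, 86.2 and 96.8 CPM, and 3 of 14 genes of that list rose and 2 fell. Of 31 genes of fatty acid oxidation 3 rose, among them *Cpt1a*, the carrier step of mitochondrial import, from 51.4 ± 1.51 to 219 ± 12.03 CPM, and 2 fell.

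**Figure D3:**
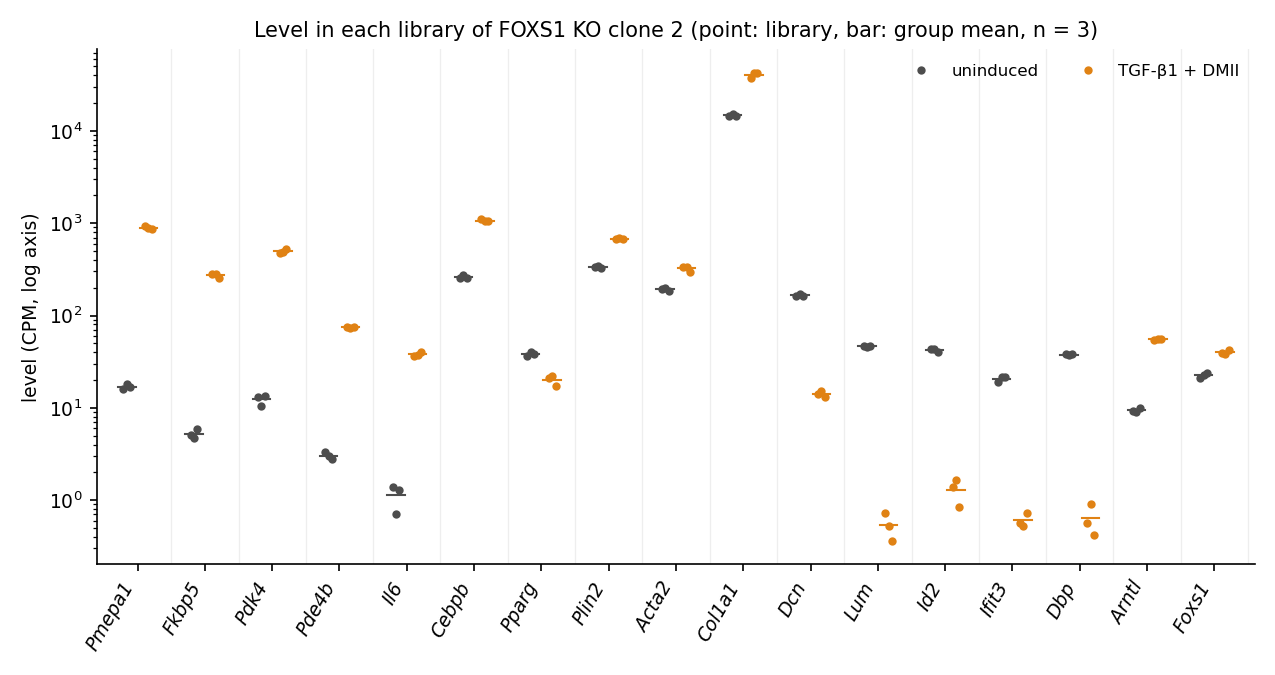
Level in CPM (log y axis) of 17 named genes in each of the 6 libraries of FOXS1 KO clone 2, uninduced in grey and stimulated in orange; points are libraries and bars group means (n = 3). The genes were picked with the results known, so the lack of overlap between the groups in each of them is a description only. Pmepa1 and Fkbp5 are among those higher after stimulation and Lum, Id2, Ifit3 and Dbp among those lower.

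Contractile genes did not rise together. Of 29 tested, 3 rose and 6 fell, with a median log2 fold change of -0.03. *Acta2*, smooth muscle α-actin and the usual marker of myofibroblasts, held 195, 199 and 186 CPM uninduced and 336, 337 and 297 CPM stimulated. The stimulated libraries were all higher, but the log2 fold change of 0.74 (SE 0.052) was below the threshold. *Tagln*, which encodes transgelin, was called as a rise from 0.0803 ± 0.0877 to 0.489 ± 0.212 CPM, on 6 and 24 counts, and 67.9% of its exonic length overlaps another gene, so its counts are uncertain. *Actn4*, an actin cross-linker, rose from 304 ± 15.9 to 791 ± 61.6 CPM, and *Lmod1*, an actin nucleator of smooth muscle, fell from 4.79 ± 0.444 to 0.549 ± 0.265 CPM.

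Collagen genes moved both ways, also within a type. Of 24 tested, 9 rose and 9 fell. Beside *Col1a1* and *Col3a1*, the fibril-forming *Col5a2* rose from 1036 ± 49.7 to 3674 ± 97.3 CPM, *Col12a1*, which decorates fibrils, from 471 ± 18.6 to 3051 ± 161 CPM, and *Col4a2*, of the basement membrane, from 1071 ± 3.55 to 3535 ± 144 CPM. *Col5a3* fell from 116 ± 10.5 to 13.2 ± 2.42 CPM, *Col4a5* from 199 ± 7.92 to 37.8 ± 2.67 CPM and *Col15a1* from 3.54 ± 0.768 to 0.547 ± 0.279 CPM, and *Col1a2*, the partner chain of *Col1a1*, had a log2 fold change of 0.74 and was not called. Together the collagen genes of the list held 5.44% to 5.65% of the counts of an uninduced library and 8.84% to 9.09% of a stimulated one. The list as a whole thus gained share while as many members fell as rose.

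Other matrix genes fell more often than they rose, 17 against 10 of 43, and the small leucine-rich proteoglycans were among the falls. *Dcn*, which encodes decorin, a proteoglycan that binds collagen and TGF-β, held 164, 169.7 and 161 CPM uninduced and 14.01, 15.04 and 13.1 CPM stimulated (log2 fold change -3.56, SE 0.11), and *Fmod*, its relative fibromodulin, 106, 97.7 and 97.9 and then 20.3, 20.2 and 16.9 CPM. *Efemp1*, a fibulin, had 65 counts uninduced and none stimulated and was at least 12.7-fold lower. Rises were led by *Thbs1*, a matricellular activator of latent TGF-β, from 23.9 ± 1.08 to 264 ± 19.2 CPM, *Vcan*, the large proteoglycan versican, from 225 ± 9.94 to 1592 ± 78.8 CPM, and *Tnc*, the wound matrix protein tenascin C, from 130.0 ± 2.301 to 637 ± 21.4 CPM. Enzymes and inhibitors of matrix processing rose in 12 and fell in 6 of 37 genes, with *Timp1*, an inhibitor of metalloproteinases, from 113 ± 5.68 to 1046 ± 50.96 CPM, and the metalloproteinase *Mmp9* down from 2.99 ± 0.235 to 0.213 ± 0.231 CPM. Among adhesion genes (5 up and 6 down of 26, or 3 and 7 with library totals) the integrin *Itgb3* rose from 77.1 ± 4.77 to 253 ± 14.2 CPM and the hyaluronan receptor *Cd44* from 128 ± 0.683 to 399.9 ± 17.8 CPM. *Cdh1*, the epithelial E-cadherin, had 241 counts uninduced and 1 stimulated (ratio 142, 25.2 to 5619).

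Growth factor and receptor genes rose in 13 and fell in 6 of 37 cases. *Hbegf*, a further ligand of the EGF receptor, held 3.35, 4.03 and 3.88 CPM uninduced and 86.8, 82.4 and 87.1 CPM stimulated (log2 fold change 4.53, SE 0.10). Like *Ereg* and *Areg*, it was a DEG that rose. These genes were named with their rises known, and other ligand genes of the EGF receptor are not described. *Vegfa*, the vascular growth factor, held 24.5, 23.2 and 23.3 and then 223, 217 and 223 CPM, while its relative *Vegfb* fell from 80.3 ± 0.797 to 24.03 ± 1.495 CPM. *Pdgfc* rose from 4.20 ± 0.869 to 30.2 ± 2.34 CPM and *Pdgfb* fell from 12.3 ± 0.596 to 5.71 ± 0.621 CPM, both being ligands of PDGF receptors. *Fgf10* and the receptor *Fgfr3* fell by 2.99 and 3.001 on the log2 scale.

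In the Wnt list 9 of 28 genes rose and 6 fell. The secreted antagonists of the family did not move together: *Sfrp1* rose from 3.08 ± 0.557 to 40.1 ± 2.204 CPM, whereas *Sfrp2*, with 99 counts uninduced and none stimulated, was at least 19.4-fold lower. *Nkd1*, a feedback inhibitor, rose from 0.143 ± 0.0711 to 1.88 ± 0.171 CPM. Among Notch and Hedgehog genes (5 up and 3 down of 20) the receptor *Notch3* held 4.51, 4.16 and 4.75 CPM uninduced and 58.7, 56.1 and 65.7 CPM stimulated, its ligand *Jag1* rose from 20.2 ± 0.920 to 78.8 ± 2.36 CPM and the target *Hes1* from 17.4 ± 0.809 to 67.9 ± 2.06 CPM. *Notch1*, at 233 ± 10.4 to 174 ± 4.86 CPM, had a log2 fold change of -0.42 and was not called. Guidance molecules split evenly, 8 up and 8 down of 37. The semaphorins *Sema5a* and *Sema7a* rose from 14.5 ± 1.95 to 186 ± 20.2 CPM and from 2.98 ± 0.738 to 37.8 ± 3.88 CPM, and *Sema3b* fell from 23.2 ± 0.690 to 1.09 ± 0.398 CPM.

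Cytokine genes rose more often than they fell. Of 29 tested, 12 rose and 4 fell. *Il6* held 1.38, 0.709 and 1.28 CPM uninduced and 36.5, 37.5 and 40.6 CPM stimulated (log2 fold change 5.03, SE 0.18, adjusted p = 3.39e-20). *Il18* fell from 2.62 ± 0.482 to 0.323 ± 0.179 CPM, and so did the chemokine gene *Ccl5*, from 3.71 ± 0.822 to 0.717 ± 0.266 CPM. In the NF-κB list 6 of 26 rose and 4 fell, and the subunit gene *Rela* had a log2 fold change of -0.19. In the acute phase and complement list 9 of 24 rose and 8 fell. *Hp*, the haemoglobin scavenger haptoglobin, held 108, 99.9 and 112 and then 915, 829 and 809 CPM, and *Serpina3n* 29.04, 22.2 and 27.2 and then 848, 833 and 779 CPM. Falling members were the complement protease *C1s1*, from 166 ± 14.2 to 7.26 ± 0.296 CPM, and *Apod*, the lipocalin apolipoprotein D, from 218 ± 9.83 to 16.5 ± 0.927 CPM.

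The interferon list was the most one-sided. Of 38 members 34 were tested, 26 fell and 0 rose, with a median log2 fold change of -2.20, against 11.2% of all genes that fell. These genes, induced downstream of the interferon receptors, encode antiviral effectors and the machinery of antigen presentation. *Ifit3* held 18.8, 21.6 and 21.8 CPM uninduced and 0.560, 0.523 and 0.722 CPM stimulated (log2 fold change -5.09, SE 0.24, adjusted p = 2.14e-17), and *Ifit1*, a sensor of viral RNA caps, 5.58, 6.16 and 6.203 and then 1.06, 1.18 and 0.962 CPM. Stimulated libraries lay below uninduced ones in each. *Ifit2* fell from 21.2 ± 0.854 to 10.2 ± 0.476 CPM. *Psmb9* had 363 counts uninduced and none stimulated, and *Gbp7*, a guanylate-binding protein, 38 and none (at least 7.45-fold lower). In WT 26 and in clone 1 30 members fell, beside 1954 and 1539 of all 14317 genes tested. The difference in response from WT was called as higher in clone 2 for 3 of the 34 members and as lower for 2. Over all genes these shares were 4.89% and 2.96%.

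The interferon-stimulated response element, searched as GAAA, any 2 bases and GAAA again on both strands (overlapping matches counted) in the 250 bases before the start, stood in 12 of 27 tested members with a RefSeq promoter (44.4%) and in 3.04% of all 27025 promoters (2.56% of those of tested genes). Stretches around the matches are printed from GRCm38.p6 with each match in capitals, for *Ifit1* (chr19:34640725-34640873, plus strand), *Ifit3* (chr19:34583313-34583476, plus strand), *Gbp7* (chr3:142530223-142530335, plus strand) and, chosen after its values were seen as a member that was not called, *Isg15* (chr4:156200819-156200956, minus strand). The element precedes members with very different log2 fold changes.
*Ifit1*: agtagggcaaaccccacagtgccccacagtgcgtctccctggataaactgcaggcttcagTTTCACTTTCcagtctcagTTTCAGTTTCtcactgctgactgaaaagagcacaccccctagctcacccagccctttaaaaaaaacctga
*Ifit3*: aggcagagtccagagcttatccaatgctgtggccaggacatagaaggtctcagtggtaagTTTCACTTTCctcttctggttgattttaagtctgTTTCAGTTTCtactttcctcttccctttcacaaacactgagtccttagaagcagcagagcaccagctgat
*Gbp7*: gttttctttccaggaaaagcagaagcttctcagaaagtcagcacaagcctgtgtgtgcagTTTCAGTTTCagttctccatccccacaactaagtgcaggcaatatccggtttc
*Isg15*: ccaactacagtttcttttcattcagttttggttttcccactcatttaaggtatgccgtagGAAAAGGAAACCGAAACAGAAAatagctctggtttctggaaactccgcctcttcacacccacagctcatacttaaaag
The printed stretch of *Ifit3* was identical to that of *Ifit3b* over 164 bases. It lies before the annotated start, so it does not show whether reads of the 2 genes can be told apart. That was not tested, and the values of both genes are uncertain on this point. *Ifit3b* fell from 8.92 ± 1.01 to 0.0778 ± 0.0847 CPM. *Isg15*, a ubiquitin-like modifier, had a log2 fold change of -0.60.

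Genes of division were not called as a group. None of 34 mitosis genes passed the rule in edgeR (18 had an unadjusted p below 0.05 and DESeq2 called 0), with log2 fold changes from -0.94 to 0.82. *Ccnb1*, the mitotic cyclin B1, held 20.8, 19.3 and 16.7 CPM uninduced and 25.7, 23.9 and 25.9 CPM stimulated. In the replication list 1 of 35 rose and 4 fell: *Tyms*, thymidylate synthase, rose from 20.1 ± 2.35 to 46.6 ± 2.61 CPM (0.92 on the log2 scale with library totals, below the threshold), and *Ccne2*, *Uhrf1*, *Mcm6* and *Mcm3* fell by 1.64, 1.41, 1.26 and 1.26 on the log2 scale. With library totals 11 members of that list fell and none rose. Among regulators of arrest 4 of 32 rose and 2 fell. *Gadd45a*, a stress sensor of the cell cycle, rose from 27.4 ± 0.453 to 129 ± 4.74 CPM, *Btg1*, an antiproliferative factor, from 249 ± 7.48 to 872 ± 29.2 CPM, and *Ccnd1*, which encodes cyclin D1, fell from 98.97 ± 4.48 to 27.1 ± 0.328 CPM.

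Immediate early genes rose in 9 and fell in 4 of 27 cases, which became 6 and 6 with library totals. *Egr3* held 28.2, 23.4 and 21.8 CPM uninduced and 169, 185 and 192 CPM stimulated, *Dusp5*, a nuclear phosphatase of ERK, rose from 7.599 ± 0.0729 to 50.8 ± 2.46 CPM, and *Fosl1*, a subunit of AP-1, from 7.799 ± 0.695 to 47.7 ± 1.63 CPM, although 57.2% of the exonic length of *Fosl1* overlaps another gene. *Fos* fell from 233 ± 17.1 to 92.2 ± 7.22 CPM, and *Klf2* from 125 ± 5.998 to 11.4 ± 2.19 CPM. The AP-1 subunit genes *Fosl1* and *Fos* thus moved in opposite directions.

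In energy metabolism 13 of 33 glycolysis and hypoxia genes rose and 5 fell, and with library totals 6 rose and 6 fell. *Hk2*, a hexokinase, held 14.7, 12.98 and 15.1 CPM uninduced and 78.3, 82.2 and 82.5 CPM stimulated, and *Pfkfb3*, which makes an activator of phosphofructokinase, 10.8, 8.99 and 12.8 and then 70.99, 71.6 and 68.2 CPM. *Car9*, a carbonic anhydrase known as a hypoxia marker, fell from 7.596 ± 0.336 to 0.391 ± 0.243 CPM, and *Epas1*, which encodes HIF-2α, from 26.6 ± 1.12 to 4.96 ± 0.475 CPM. None of 38 respiratory chain genes was called by edgeR (23 had an unadjusted p below 0.05, and DESeq2 called 0), with log2 fold changes from -0.49 to 0.83. Genes of ribosome biogenesis had a median of 0.52 (0.23 with library totals), and 2 of 35 rose, namely *Myc*, a driver of growth, from 40.5 ± 2.78 to 137 ± 9.91 CPM, and *Polr1a*, a subunit of RNA polymerase I, from 50.04 ± 2.06 to 117 ± 7.397 CPM (0.94 on the log2 scale with library totals, below the threshold).

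Stress genes rose in part. In the unfolded protein and integrated stress list 8 of 36 rose and 2 fell, against 4 and 2 with library totals. *Slc7a11*, the cystine transporter, held 6.36, 7.93 and 8.23 CPM uninduced and 30.1, 34.6 and 38.0 CPM stimulated, and *Cth*, which makes cysteine, rose from 5.34 ± 0.187 to 23.1 ± 1.76 CPM, while the chaperone gene *Hspa5* had a log2 fold change of 0.71 and was not called. Of 34 antioxidant and metal genes 9 rose and 4 fell. *Nqo1* and *Gclc*, targets of NRF2, held 247, 249 and 213 and 27.5, 27.7 and 30.6 CPM uninduced and 813, 799.9 and 806 and 148, 150.2 and 160.1 CPM stimulated. *Sod3*, the extracellular superoxide dismutase, rose from 358 ± 4.17 to 2121 ± 77.2 CPM. The glutathione transferase genes *Gsta4* and *Gstm1* fell from 168 ± 7.89 to 14.5 ± 0.174 CPM and from 316 ± 6.91 to 78.8 ± 1.99 CPM.

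Clock genes moved in both directions. *Arntl*, which encodes BMAL1, held 9.28, 9.03 and 9.97 CPM uninduced and 54.9, 55.9 and 55.6 CPM stimulated (log2 fold change 2.56, SE 0.10), and *Nfil3*, a repressor of D-box genes, rose from 21.1 ± 1.69 to 96.5 ± 4.54 CPM. *Dbp*, an activator of D-box genes and a direct target of BMAL1, held 38.4, 36.9 and 37.97 and then 0.560, 0.915 and 0.421 CPM (log2 fold change -5.91, SE 0.20), *Per3* fell from 23.6 ± 3.304 to 2.67 ± 0.880 CPM and *Tef*, a relative of *Dbp*, from 212 ± 5.404 to 42.02 ± 1.58 CPM. Of the list 4 of 21 genes rose and 7 fell, while *Clock* had a log2 fold change of 0.54. Each group was sampled at 1 time, so phase and level cannot be told apart. The E-box CACGTG, the site of CLOCK and BMAL1, stood in 5 of 17 tested members (29.4%), in 6.05% of all promoters and in 8.37% of those of tested genes. Beside *Tef* the carriers, named after their values were seen, were *Ciart* and *Cry1*, which fell by 1.897 and 1.73 on the log2 scale, and *Per1* and *Bhlhe41*, at 0.82 and 0.62 and not called. That of *Tef* lies on chr15:81802486-81802611 (plus strand) of GRCm38.p6 and is shown with the E-box in capitals.
*Tef*: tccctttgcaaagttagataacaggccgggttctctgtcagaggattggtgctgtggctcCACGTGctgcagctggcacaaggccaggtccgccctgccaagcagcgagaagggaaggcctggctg

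In the bone, cartilage and tendon list 3 of 23 rose and 7 fell. Beside *Alpl*, the cartilage collagen gene *Col2a1* rose from 1030.1 ± 36.3 to 2152 ± 97.2 CPM, which was 0.77 on the log2 scale and not called with library totals. *Tnmd*, the tendon relative of chondromodulin, held 11.7, 13.6 and 11.8 CPM uninduced and 0.616, 0.196 and 0.361 CPM stimulated, *Phex*, a peptidase of bone, fell from 21.2 ± 2.45 to 1.74 ± 0.647 CPM, and *Runx2*, the regulator of osteoblasts, had a log2 fold change of -0.36 and was not called. Only 5 of 22 skeletal muscle genes passed the filter, and *Myf5* and *Myf6* had no count. Among forkhead and other patterning factors 6 of 28 rose and 3 fell: *Foxf2*, *Foxf1* and *Foxc2*, relatives of *Foxs1*, rose from 9.82 ± 0.0828 to 54.02 ± 1.78 CPM, from 4.896 ± 0.646 to 14.3 ± 0.708 CPM and from 35.6 ± 1.76 to 99.6 ± 5.19 CPM, and *Osr1* fell from 126 ± 1.11 to 61.9 ± 1.05 CPM.

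The response of clone 2 was then compared with the same stimulation in WT cells and in clone 1. The 3 responses share no library. Of the 2528 DEGs of clone 2, 1550 (61.3%) were DEGs of the same direction in WT, which is 54.4% of the 2849 there, and 1682 (66.5%) in clone 1, which is 70.3% of the 2391 there. Opposite directions were found in 41 genes against WT and in 10 against clone 1. The difference of the responses was tested directly as an interaction. It was called for 1124 genes against WT, 700 higher and 424 lower in clone 2 (4.89% and 2.96% of genes tested). Against clone 1 it was called for 433 genes, 212 higher and 221 lower (1.48% and 1.54%). The uninduced WT libraries, on which every difference from WT rests, agreed least with each other. Their correlations of log2 CPM were 0.963, 0.969 and 0.983, against at least 0.987 in the other groups. Both differences use the libraries of clone 2 and are therefore not independent of each other. Differences that arise from picking a clone cannot be told apart from those of the edit with 2 clones.

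**Figure D4:**
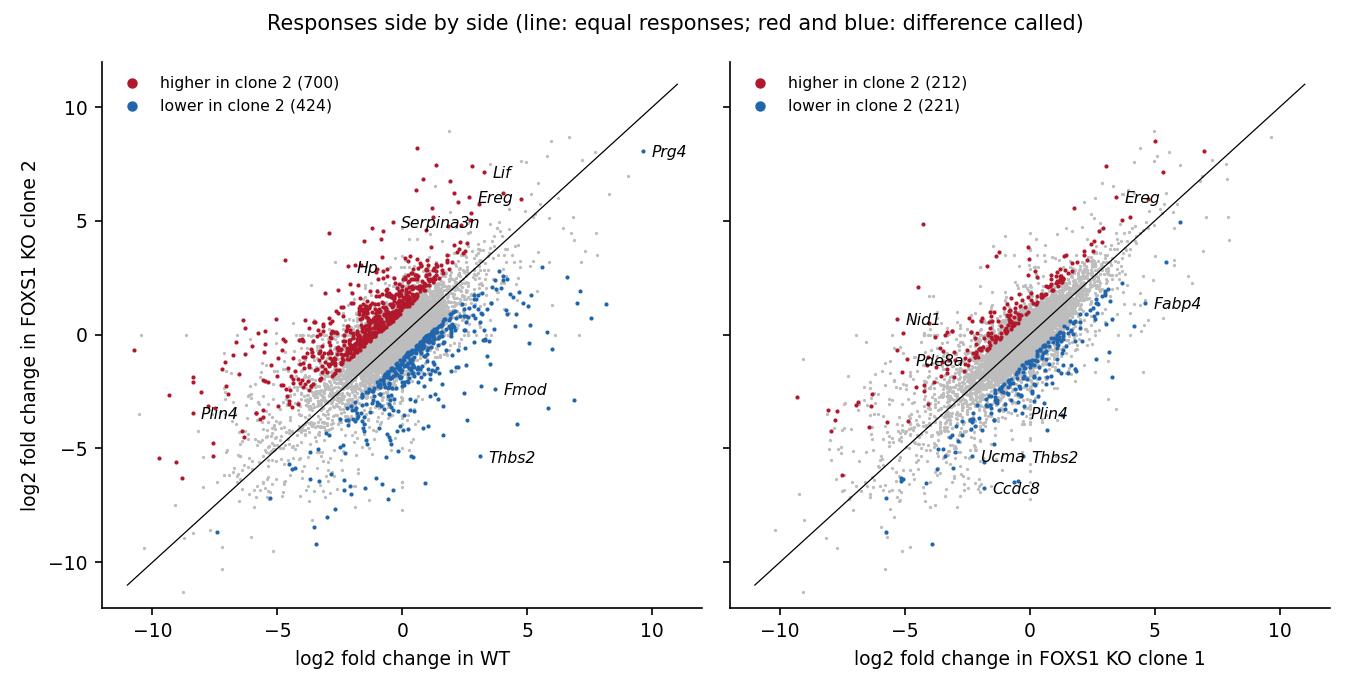
Log2 fold change of every tested gene in FOXS1 KO clone 2 (y axis) against that in WT (left) and in FOXS1 KO clone 1 (right), with genes whose difference in response was called in red (higher in clone 2) or blue (lower) and the line of equal responses. Called differences number 700 and 424 against WT and 212 and 221 against clone 1.

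Among genes that averaged 5 CPM or more over the 12 libraries compared, the 5 largest higher responses against WT were those of *Serpina3n*, *Hp*, *Plin4*, *Abca8a* and *Abca8b*. Differences of genes below that level can be larger and are not described. *Serpina3n* was 6.48 ± 0.817 to 5.07 ± 0.848 CPM in WT, where it was not called, so its log2 fold change was higher in clone 2 by 5.33 (SE 0.22, adjusted p = 8.34e-12). *Hp* fell in WT (56.1 ± 6.23 to 12.5 ± 0.291 CPM) and rose in clone 2, a difference of 5.15 (SE 0.12). *Plin4* fell in both, from 42.7 ± 5.94 to 0.122 ± 0.0513 CPM in WT, and the fall was smaller in clone 2 by 4.96 on the log2 scale. *Abca8a* and *Abca8b*, transporters of lipids, had log2 fold changes of -7.79 and -4.81 in WT and -3.12 and -0.66 in clone 2. In these genes clone 1 had values of 6.02, 3.67, -0.31, -6.35 and -2.53, in the same order. The response of *Plin4* in clone 2 lay between those of WT and clone 1, and both of its differences were called.

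Above the same level the 5 largest lower responses against WT were *Thbs2*, *Gpr153*, *Fmod*, *Fgf18* and *Pianp*. All but *Fmod* met that level through the WT libraries and had few or no counts in stimulated clone 2. *Thbs2*, an antiangiogenic thrombospondin, rose in WT (22.9 ± 3.31 to 199 ± 4.85 CPM), whereas clone 2 held 89 counts uninduced and 1 stimulated (a ratio of uninduced to stimulated of 52.3, 9.15 to 2089.7). The fitted difference was -8.46 (SE 0.47, adjusted p = 7.65e-15, edgeR) and, with 1 stimulated count in clone 2, depends on the prior count. *Fmod* rose in WT (6.997 ± 1.13 to 92.9 ± 8.81 CPM) and fell in clone 2, a difference of -6.11 (SE 0.17). *Gpr153*, an orphan receptor, and *Fgf18*, a growth factor of the skeleton, rose in WT (0.364 ± 0.0658 to 23.8 ± 1.69 CPM and 3.199 ± 0.263 to 27.9 ± 2.33 CPM) and were not called in clone 2, where they held 11 and 10 counts uninduced and 4 and 1 stimulated. *Pianp*, a ligand of the receptor PILRα, had 38 counts uninduced and none stimulated in clone 2 and went from 13.9 ± 1.799 to 6.71 ± 0.811 CPM in WT.

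Lists differed from WT in both directions. Of 26 glucocorticoid targets 18 responded higher in clone 2 than in WT and 0 lower. *Fkbp5* rose by 3.08 in WT, a difference of 2.64 (SE 0.15), and *Tsc22d3* fell there (15.1 ± 1.09 to 4.65 ± 0.894 CPM), a difference of 2.97 (SE 0.17). Stimulated levels of these genes were also higher in clone 2 than in WT, but a higher response need not mean a higher level. *Pdk4* differed by 2.56, yet it went from 137 ± 6.08 to 928 ± 14.3 CPM in WT and from 12.4 ± 1.73 to 497 ± 27.9 CPM in clone 2. Median log2 fold changes of the list were -0.09 in WT, 1.89 in clone 1 and 1.59 in clone 2. Higher responses were also called for 11 of 25 adipogenic factors, 12 of 30 lipid droplet genes, 11 of 34 antioxidant genes and 11 of 27 immediate early genes. *Pparg* fell by far more in WT (49.5 ± 1.47 to 4.18 ± 0.365 CPM), so its response was higher in clone 2 by 2.63 (SE 0.14). The difference of *Plin2* was 1.69, of *Scd1* 2.099, of *Abca1* 3.005 and of *Nqo1* 2.599, all called. Lower responses were called for 11 of 29 contractile genes and 12 of 43 other matrix genes. *Acta2* rose in WT (274 ± 19.3 to 2036 ± 84.4 CPM), a difference of -2.15 (SE 0.073, adjusted p = 1e-19). Of 30 TGF-β targets 1 responded higher and 3 lower, against 4.89% and 2.96% of all genes. *Acta2*, also a member of this list, and *Tgfbi* (-4.23, SE 0.24) were among the lower ones. The difference of *Pmepa1* was 0.21 (SE 0.082) and not called.

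**Figure D5:**
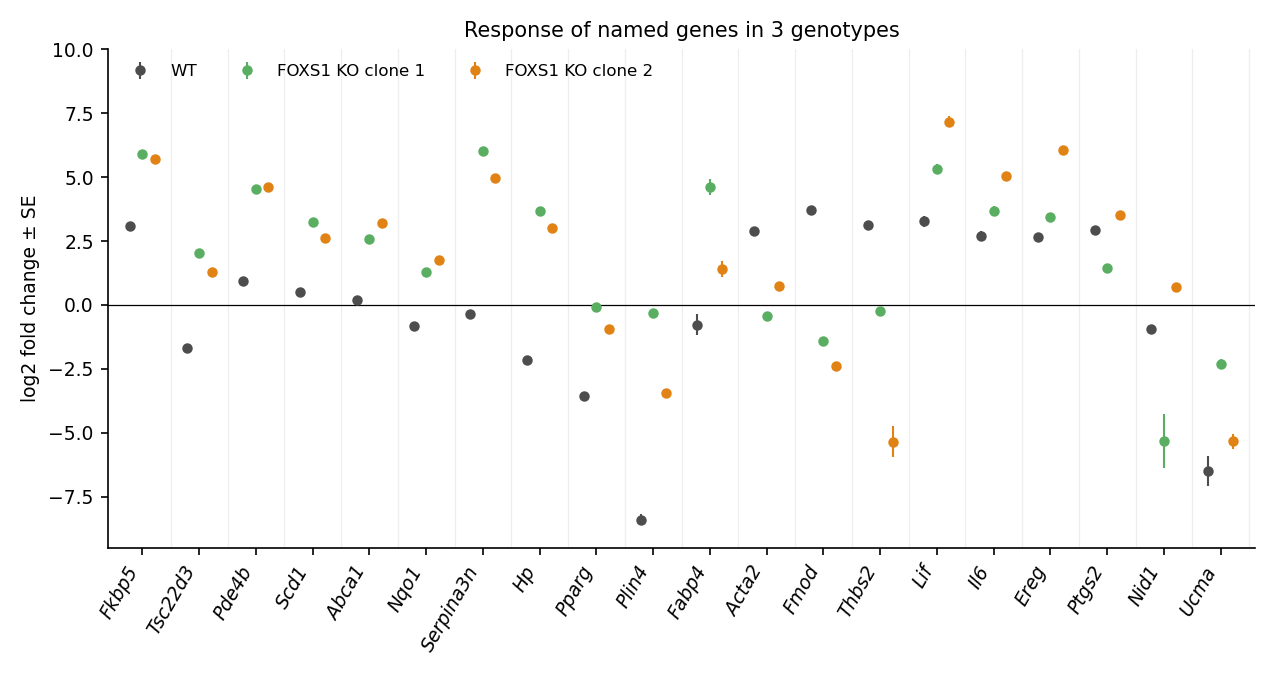
Log2 fold change after stimulation (y axis, ± SE derived from the edgeR F statistic) of 20 named genes in WT, FOXS1 KO clone 1 and FOXS1 KO clone 2, 3 libraries per group. Fkbp5, Pde4b, Scd1 and Abca1 lie above WT in both clones, Acta2 and Fmod lie below WT, and Lif, Il6, Ereg and Ptgs2 are highest in clone 2. The difference of Ptgs2 between clone 2 and WT was not called.

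Between the clones the 5 largest higher and 5 largest lower responses were taken with the same limit on level. *Nid1*, which encodes the basement membrane protein nidogen, went from 118 ± 2.28 to 192 ± 13.7 CPM in clone 2 and was not called there, while clone 1 held 13 counts uninduced and none stimulated. The difference in response of 6.02 (SE 1.02, adjusted p = 7.85e-05) rests on those counts and depends on the prior count. The integrin subunit genes *Itgb8* and *Itga8* differed by 3.16 and 3.07, and the phosphodiesterase genes *Pde10a* and *Pde8a* by 3.91 and 3.81. *Pde10a* rose in clone 2 on 4 and 38 counts, against 689 and 791 in clone 1. Lower in clone 2 were *Thbs2* (-5.09), *Ccdc8* (-4.88), *Fabp4* (-3.201), *Plin4* (-3.11) and *Ucma* (-3.02), a matrix protein of cartilage. *Ccdc8* had no count in stimulated clone 2 and *Thbs2* had 1, so their fitted differences depend on the prior count too. *Fabp4* went from 0.837 ± 0.112 to 20.4 ± 4.37 CPM in clone 1 and *Ucma* from 23.5 ± 0.764 to 4.71 ± 0.824 CPM.

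Among cytokine genes the called differences between the clones were all higher in clone 2. The difference was called as higher for 11 and lower for 0 of 29 cytokine genes, among them *Lif* (1.85, SE 0.39) and *Il6* (1.34, SE 0.28). It was also called for *Ereg* (2.600), *Hbegf* (1.78) and *Ptgs2* (2.06). For *Ptgs2* the difference from WT was 0.57 (SE 0.13), below the fold threshold and not called. Adipocyte markers and lipid droplet genes were called only as lower, 5 of 15 and 5 of 30, and mitosis genes were lower in 10 of 34. In clone 1, 12 of the 34 mitosis genes rose, beside 852 of all 14317 genes tested. *Cebpa* differed by -1.24 (SE 0.096). For the glucocorticoid list 0 responses were higher and 3 lower, and the differences of *Fkbp5* and *Pde4b* were -0.18 (SE 0.15) and 0.051 (SE 0.16). Of 30 TGF-β targets 6 responded higher in clone 2 than in clone 1 and 1 lower, against 1.48% and 1.54% of all genes. Median log2 fold changes of that list were 1.57 in clone 2, 0.79 in clone 1 and 1.55 in WT.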

How the data were processed

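Uninduced and TGF-β1 + DMII stimulated 10T1/2 cells of 3 genotypes (WT, FOXS1 KO clones 1 and 2) were profiled by poly(A) RNA sequencing, 3 libraries per group. The authors deposited 1 table of read counts per gene, not normalized. Per the submitters' processing notes, reads were aligned with HISAT2 to mm10. For the counting program, annotation release and use of strand, nothing is given in the sources used here. Columns of gene names, biotypes and positions were taken from the same table.

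The deposited counts of all 18 libraries were fitted together with edgeR 4.0.16 (R 4.3.3), using TMM, the filterByExpr filter (minimum count 10), 6 group terms, robust quasi-likelihood dispersions and the two-sided quasi-likelihood F-test. Adjusted p-values are Benjamini-Hochberg over all 14317 genes tested. The response of clone 2 was its stimulated minus its uninduced group, and a difference in response was an interaction contrast. Each SE is the size of the log2 fold change divided by the square root of its F statistic, not an error estimated in the fit. It is only a rough guide where a group has few or no counts. For *Thbs2* it was smaller for the difference from WT (0.47) than for the clone 2 response (0.591). CPM are counts scaled to the TMM-corrected library size. Against a group with no count, a bound was taken with a floor of 3 counts over the group, and with 1 to 3 counts a ratio with an exact 95% interval. Both cover counting error only, and the sources used here mention no molecular identifiers.

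Genes named in the text were taken from these: *Foxs1*, the 10 largest rises and falls with a mean of at least 5 CPM, the 3 largest rises, the 3 largest falls and the first 3 members of each list, the 5 largest positive and negative differences per comparison with a mean of at least 5 CPM over its 12 libraries, the 5 largest gains and losses in CPM, and the 3 genes with most counts that were absent in 1 group, in each direction. Of the 10 largest rises, 1 is not reported here. The members and the gene lists were chosen with earlier results of these data known. Motifs were searched on both strands of the 250 bases before each start, CRE, glucocorticoid hexamer, SMAD box, E-box and interferon element among 10 motifs. Promoter sequences are RefSeq's for GRCm38.p6, matched by symbol.

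On simulated counts with 13792 genes, 88% of genes changed by 2 and 95% of those changed by 3 on the log2 scale were called in the clone 2 response. These shares were 81.7% and 90.3% for the difference from WT, and 81% and 89.3% for that from clone 1. Over 3 runs 4, 5 and 6 unchanged genes were called, in the same order. Each run changed 200 genes, with as many rises as falls, so the larger and uneven response of the data was not imitated. Libraries of clone 2 differed from each other by more than sampling noise, so none was a duplicate. Alternatives were another scaling, filter, tool and threshold, a replicate block, fewer groups and leaving out each library.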

Additional observations from a re-analysis of the deposited data

Results flagged for a closer look

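The response of FOXS1 KO clone 2 differed from that of WT, by the edgeR test of the difference itself, in 700 genes that responded higher and 424 that responded lower. Among genes that averaged 5 CPM or more over the 12 libraries compared, *Plin4* (4.96), *Serpina3n* (5.33), *Hp* (5.15), *Abca8a* (4.68) and *Abca8b* (4.16) were higher in clone 2 on the log2 scale. *Thbs2* (-8.46), *Gpr153* (-6.65), *Fmod* (-6.11), *Fgf18* (-5.38) and *Pianp* (-5.24) were lower. The values of *Thbs2*, *Gpr153*, *Fgf18* and *Pianp* rest on 1, 4, 1 and 0 counts in stimulated clone 2.

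The response also differed between the clones, in 212 genes higher and 221 lower in clone 2. By the same limit on level, *Nid1* (6.02), *Pde10a* (3.91), *Pde8a* (3.81), *Itgb8* (3.16) and *Itga8* (3.07) were higher, and *Thbs2* (-5.09), *Ccdc8* (-4.88), *Fabp4* (-3.20), *Plin4* (-3.11) and *Ucma* (-3.02) were lower. *Plin4* and *Thbs2* appear against both WT and clone 1, and the comparisons share the libraries of clone 2.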

How the results depend on the processing

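With no fold threshold 7982 genes were called in the response of clone 2, 4463 in its difference from WT and 2069 in that from clone 1. Tested against the fold threshold itself (glmTreat) the counts were 1520, 455 and 89, so calls with a log2 value near 1, such as *Plin2*, *Fn1*, *Ifit2*, *Osr1*, *Pdgfb*, *Col2a1* and *Col6a1*, and the low or variable *Fabp4*, *Adipoq* and *Tagln*, were lost in the response under that rule. All other alternatives kept these counts within 1.5 times. DESeq2 called 2564, 1217 and 475 genes. Leaving out 1 library gave 2405 to 2477, 1079 to 1303 and 384 to 429 calls. No gene named in the text changed direction in its response or in a called difference under the alternatives run, except the uncalled *Dusp1*, at -0.27 with library totals, -0.0010 with no filter beyond 1 count and -0.021 to 0.096 when 1 library was left out. Scaling by library totals, an alternative chosen after seeing the data, raised the number of members that fell to 7 in the BMP list, 6 in the adipogenic factor list, 5 in the lipid droplet and in the fatty acid oxidation lists, 4 in the TGF-β target list and 3 in fatty acid synthesis, left 4 rises in the stress list, and turned 9 rises and 4 falls of immediate early genes into 6 and 6. The cause was not tested.

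Replicate numbers are shared between groups, but same-numbered libraries of clone 2 did not deviate together (correlations of -0.0042, -0.016 and 0.0058), so no pairing was assumed. With the replicate block 2497, 1103 and 416 genes were called, and 2320 in a fit of clone 2 alone with the block. Depth limits genes with few counts, and the stimulated group, in which 463 genes seen in every uninduced library had no count, was the shallower one.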
